A study of Mus musculus with 24 samples.

Results

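The 9 genes Ccr2, Ly6c2, Plac8, Chil3, S100a8, S100a9, Csf3r, Cxcr2 and Fpr2, known from blood monocytes and neutrophils, were looked up by symbol among the 36333 genes listed. All 9 were present, and all 9 are described. RNA was sequenced from 24 male C57BL6N mice aged 12 to 16 weeks, 1 library per mouse, at 5 days post injury (dpi). Traumatic brain injury (TBI) was set by controlled cortical impact in 4 groups of 5 mice. The Vehicle group received no drug, the PLX3397 group chow with 290 mg of the CSF1R inhibitor PLX3397 per kg of food from 90 min after injury, the Anakinra group 100 mg/kg of the IL-1 receptor antagonist Anakinra under the skin at 5 min, 24 h, 48 h and 72 h, and the PLX3397+Anakinra group both. The Sham group held 4 mice with a skin incision, no craniotomy and vehicle treatment, so that craniotomy and impact were not separated in any comparison with sham. No group carried a transgene.

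The labels are used for strain and age, for which the methods name C57BL/6JRj and a narrower range of weeks. The tissue is labelled cortex, but per the methods the sections took in striatum, thalamus and dorsal hippocampus as well, and the summed level of 3 striatal markers was 604 to 1061 TPM over all libraries. Values are TPM (transcripts per 1000000), which are scaled to gene length and can be compared between genes. Depth per library is unknown. Between 22160 and 23249 genes were above 0 in a library. All animal IDs of the Vehicle group, and no others, end in the letter B. What the letter stands for is not stated, and a batch it might mark cannot be told apart from the vehicle treatment. The tissue was bulk brain, so that fewer cells of a type and less RNA per cell cannot be told apart. Per the methods, the mice were decapitated under anaesthesia and the brains were taken out and frozen, with no perfusion step named. Blood left in the vessels was thus not separated from the tissue by any step described.

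Monocytes and neutrophils are blood leukocytes that leave the vessels at sites of injury. Inflammatory monocytes of the mouse carry the chemokine receptor CCR2, which follows CCL2, CCL7 and CCL12, and the surface protein Ly6C2. PLAC8 is abundant in monocytes and granulocytes, and CHIL3 (Ym1) is a chitinase-like protein made by monocytes and by macrophages under type 2 cytokines. S100A8 and S100A9 pair to form calprotectin, which fills the cytosol of neutrophils and occurs in monocytes. CSF3R is the receptor for the granulocyte growth factor CSF3, CXCR2 the neutrophil receptor for CXCL1, CXCL2 and CXCL5, and FPR2 a formyl peptide receptor that also binds annexin A1 and serum amyloid A. CSF1R, the target of PLX3397, is the growth factor receptor on which microglia depend. Other cells of the myeloid lineage, monocytes and macrophages among them, carry it too.

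S100a8 (chromosome 3, 90668978 to 90670035, plus strand, GRCm38) and S100a9 (chromosome 3, 90692632 to 90695721, minus strand) lie 22596 bases apart. Csf3r lies on chromosome 4 (126024550 to 126044440, plus strand) and Ccr2 on chromosome 9 (124101950 to 124113557, plus strand). All 9 genes had a promoter in the RefSeq table for GRCm38.p6, with 250 bases before and 50 bases after the start of transcription, and Ly6c2 and Plac8 had more than 1. Those of S100a8 and S100a9, whose levels rose and fell together from mouse to mouse, and of Csf3r and Ccr2, which were lower with PLX3397, are printed 5′ to 3′ on the strand of the gene. Capitals mark matches on either strand to GAGGAA, a short form of the PU.1 motif, or TTGCNNAA, a C/EBP motif.
S100a8, chr3:90668821-90669120, plus strand: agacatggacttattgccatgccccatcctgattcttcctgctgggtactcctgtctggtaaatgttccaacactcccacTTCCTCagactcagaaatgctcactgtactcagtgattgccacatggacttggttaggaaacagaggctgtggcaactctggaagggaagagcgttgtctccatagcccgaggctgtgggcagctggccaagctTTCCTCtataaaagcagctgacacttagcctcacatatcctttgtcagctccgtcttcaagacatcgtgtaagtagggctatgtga
S100a9, chr3:90695672-90695971, minus strand: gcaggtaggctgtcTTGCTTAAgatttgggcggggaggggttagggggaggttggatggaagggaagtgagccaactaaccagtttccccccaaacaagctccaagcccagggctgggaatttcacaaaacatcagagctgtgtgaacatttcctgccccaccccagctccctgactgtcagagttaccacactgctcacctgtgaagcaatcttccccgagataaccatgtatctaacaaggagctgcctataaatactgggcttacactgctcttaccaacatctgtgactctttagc
Csf3r, chr4:126024409-126024708, plus strand: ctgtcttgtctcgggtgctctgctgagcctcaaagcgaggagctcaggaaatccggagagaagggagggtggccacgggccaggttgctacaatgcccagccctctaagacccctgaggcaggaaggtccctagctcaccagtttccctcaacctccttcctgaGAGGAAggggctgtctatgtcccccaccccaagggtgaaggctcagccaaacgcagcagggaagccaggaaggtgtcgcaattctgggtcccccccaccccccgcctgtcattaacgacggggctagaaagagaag
Ccr2, chr9:124101933-124102232, plus strand: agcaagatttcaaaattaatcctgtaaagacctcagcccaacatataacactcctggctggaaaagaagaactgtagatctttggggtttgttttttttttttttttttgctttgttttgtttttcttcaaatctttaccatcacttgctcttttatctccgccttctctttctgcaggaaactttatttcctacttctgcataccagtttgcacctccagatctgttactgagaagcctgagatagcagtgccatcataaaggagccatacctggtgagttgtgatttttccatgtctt
S100a8 held 2 matches to GAGGAA and none to TTGCNNAA, S100a9 held 1 match to TTGCNNAA and none to GAGGAA, Csf3r held 1 match to GAGGAA, and Ccr2 held neither. Among all 32851 promoters of the same table, 28.3% held GAGGAA and 10.8% held TTGCNNAA. The 2 motifs do not overlap in these windows, and a match describes letters only.

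The levels of the members spanned a wide range. Over the 24 libraries, Csf3r and S100a8 averaged 11.5 TPM each, S100a9 5.65, Chil3 1.73, Ly6c2 1.56 and Ccr2 1.22 TPM. Plac8 (0.425 TPM), Fpr2 (0.375 TPM) and Cxcr2 (0.322 TPM) stayed below 0.5 TPM on average and are treated as barely detected. Plac8 reached 0.5 TPM in 8 of the 24 libraries, and Cxcr2 and Fpr2 in 6 each. The 6 members with a mean of at least 0.5 TPM entered the test across all genes (limma on log2(TPM + 1), Benjamini-Hochberg adjusted over 17267 genes, called at an adjusted p below 0.05).

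**Figure D1:**
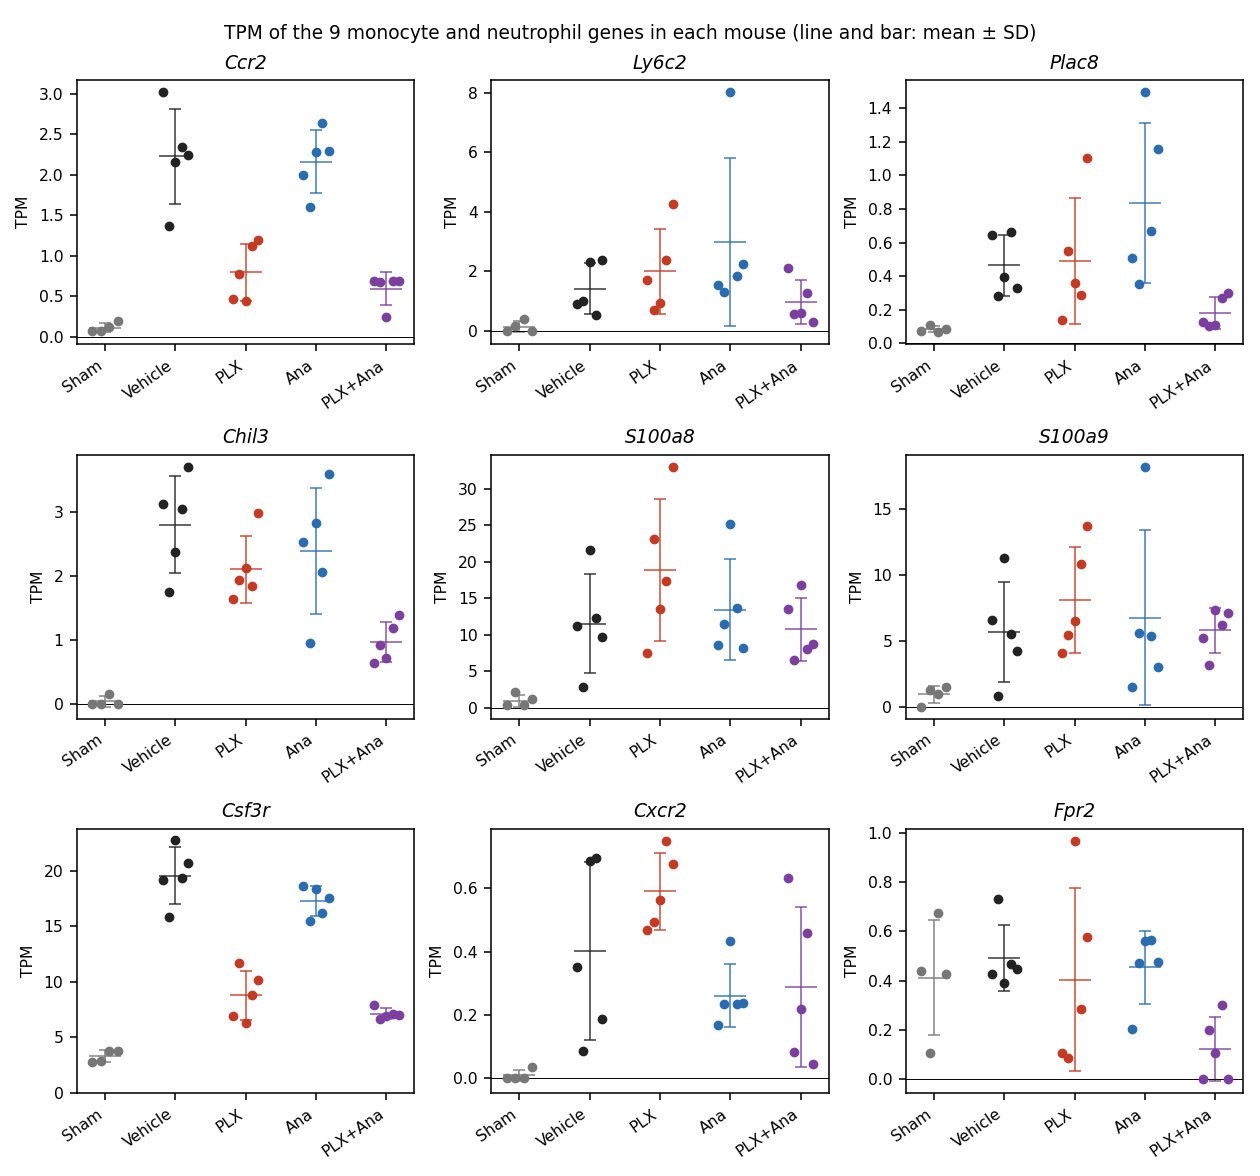
TPM of each of the 9 genes (vertical axes, linear, a scale per gene) in every mouse (points) by group, with the mean ± SD as line and bar. PLX stands for PLX3397 and Ana for Anakinra. Csf3r and Ccr2 sit high with vehicle and Anakinra and low in both groups given PLX3397, whereas S100a8 and S100a9 overlap widely among the 4 TBI groups.

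The first comparison asked how the genes stood after injury. Csf3r measured 2.82, 2.84, 3.76 and 3.80 TPM in the sham mice and 19.2, 15.8, 22.8, 19.3 and 20.7 TPM in the vehicle mice. The groups did not overlap, and Csf3r rose 5.92-fold in the group means, by 2.26 ± 0.12 (SE) on the log2(TPM + 1) scale (limma, adjusted p = 1.36e-13). It had the highest sham mean of the 9 genes (3.30 ± 0.549 TPM, SD, n = 4).

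S100a8 measured 0.362, 2.08, 0.319 and 1.12 TPM in sham mice and 11.2, 2.76, 21.6, 12.3 and 9.64 TPM in vehicle mice. The lowest vehicle mouse, J17B, lay just above the highest sham mouse. The rise was 11.9-fold in the means and 2.54 ± 0.42 (SE) on the log2 scale (limma, adjusted p = 1.50e-05). Its partner S100a9 measured 0, 1.29, 0.956 and 1.47 TPM in sham mice and 6.57, 0.774, 11.3, 5.53 and 4.25 TPM in vehicle mice. Mouse J17B was again the lowest and lay within the sham range, and the difference was 1.63 ± 0.48 (SE) on the log2 scale (limma, adjusted p = 0.00619).

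The monocyte receptor gene Ccr2 measured 0.0716, 0.0684, 0.126 and 0.194 TPM in sham mice and 3.02, 1.36, 2.16, 2.34 and 2.25 TPM in vehicle mice. No vehicle mouse came near the sham range, and the rise was 1.51 ± 0.15 (SE) on the log2 scale (limma, adjusted p = 3.60e-09). Chil3 was listed at 0 in 3 of 4 sham mice and at 0.163 TPM in the other, against 3.13, 1.76, 2.38, 3.06 and 3.72 TPM in vehicle mice. Its rise was 1.85 ± 0.19 (SE) on the log2 scale (limma, adjusted p = 8.32e-09). Ly6c2 was listed at 0 in 2 sham mice and at 0.145 and 0.402 TPM in the others, and measured 0.884, 1.01, 2.30, 0.517 and 2.39 TPM in vehicle mice. The lowest vehicle value was close to the highest sham value, and the rise was 1.03 ± 0.35 (SE) on the log2 scale (limma, adjusted p = 0.0160).

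All 6 members tested were thus higher with vehicle than in sham, where 26.6% of all genes tested were higher. Ccr2, Ly6c2 and Chil3 had sham means below 0.5 TPM and entered the test through the TBI groups, so that their rise was partly fixed by that filter. All 6 were also higher than sham with PLX3397 (22.7% of genes tested) and with Anakinra (25.1%). With PLX3397+Anakinra 5 of 6 were higher than sham (20.7% of genes tested). The exception was Ly6c2, with a difference of 0.73 ± 0.35 (SE) on the log2 scale (limma, adjusted p = 0.106), which passed with a pseudocount of 0.1 and when only these 2 groups were fitted. All of these comparisons share the 4 sham mice. Of the 9 genes, 7 did not overlap between vehicle and sham, where 42.7% of all genes tested did not overlap. An exact two-sided permutation test of the mean TPM, made for the 9 genes in 9 comparisons (81 tests, unadjusted), gave its smallest possible value of 0.0159 for these 7, 0.0635 for S100a9 and 0.429 for Fpr2.

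The next comparison set PLX3397 against vehicle. Csf3r measured 6.90, 11.7, 6.31, 8.85 and 10.2 TPM with PLX3397, in every mouse below the lowest vehicle mouse. Its mean fell from 19.6 ± 2.54 to 8.78 ± 2.23 TPM (SD, n = 5 each), which is 44.9% of the vehicle level, and the log2 difference was -1.09 ± 0.12 (SE; limma, adjusted p = 3.50e-07). Ccr2 measured 0.468, 0.777, 0.443, 1.12 and 1.19 TPM, again without overlap. Its mean fell from 2.23 ± 0.589 to 0.800 ± 0.351 TPM (SD, n = 5 each), to 35.9% of vehicle, with a log2 difference of -0.84 ± 0.14 (SE; limma, adjusted p = 0.000132).

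The calprotectin genes did not follow. S100a8 measured 7.44, 23.05, 13.5, 17.3 and 33.0 TPM with PLX3397, a mean of 18.9 ± 9.74 TPM against 11.5 ± 6.74 with vehicle (SD, n = 5 each). The groups overlapped, and the log2 difference was 0.73 with a 95% interval of -0.09 to 1.55 (limma, adjusted p = 0.288). S100a9 measured 4.05, 5.47, 6.48, 10.8 and 13.8 TPM, with a log2 difference of 0.58 and an interval of -0.36 to 1.52 (limma, adjusted p = 0.494). The intervals reach little below 0, and neither covers the size of the fall seen for Csf3r. Ly6c2 measured 1.70, 0.708, 0.942, 2.38 and 4.26 TPM, with an interval of -0.42 to 0.95 (limma, adjusted p = 0.705). Chil3 measured 1.64, 1.93, 2.12, 1.84 and 2.99 TPM, a mean of 2.11 ± 0.525 TPM (SD, n = 5), with an interval of -0.65 to 0.08 (limma, adjusted p = 0.363). In all, 2 of 6 members were lower with PLX3397 and none was higher, where 6.66% of all genes tested were lower. Ccr2 and Csf3r were also the 2 of 9 genes without overlap between these groups (6.89% of genes tested).

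**Figure D2:**
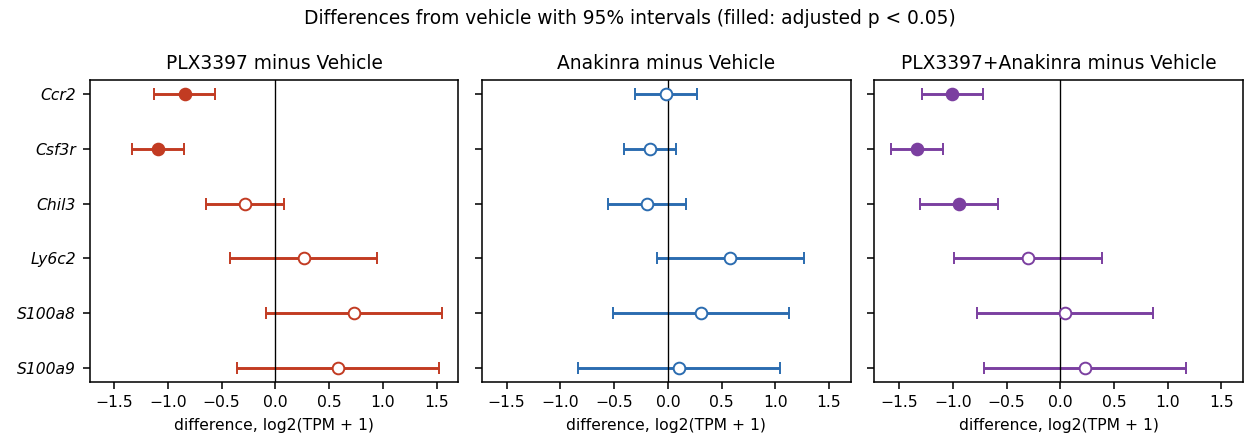
Difference of each of the 6 members tested from vehicle on the log2(TPM + 1) scale (horizontal axes) under PLX3397, Anakinra and PLX3397+Anakinra, with 95% intervals from limma. Filled points had an adjusted p below 0.05. Csf3r and Ccr2 lie left of 0 in both panels with PLX3397, Chil3 with PLX3397+Anakinra, and none with Anakinra.

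Whether the members differed in their change was tested within mice, as the difference in log2(TPM + 1) between 2 members in each mouse. All 15 pairs of the 6 members were compared between PLX3397 and vehicle by exact two-sided permutation, a test added after the values were seen, with unadjusted p-values. The excess of S100a8 over Csf3r was larger by 1.82 with PLX3397 than with vehicle, without overlap (exact p = 0.00794, the smallest possible). The ratio of the 2 TPM values was 0.174 to 0.947 in vehicle mice and 1.08 to 3.25 in PLX3397 mice. The same measure was 1.68 for S100a9 and Csf3r (exact p = 0.0159), 1.36 for Ly6c2 and Csf3r (exact p = 0.0238) and 0.81 for Chil3 and Csf3r (exact p = 0.00794). For S100a8 and S100a9 it was 0.14 (exact p = 0.683), and for Ccr2 and Csf3r 0.25 (exact p = 0.143). Adding 1 to TPM shrinks the change of low genes, so this measure also depends on the level of each gene. In mean TPM, Ccr2 fell further than Csf3r, to 35.9% of vehicle against 44.9%. Of the 15 pairs, 8 had an exact p below 0.05, and these were the pairs that joined Csf3r or Ccr2 to one of Chil3, Ly6c2, S100a8 and S100a9. Between PLX3397+Anakinra and vehicle, 6 of 15 pairs had an exact p below 0.05, and the excess of S100a8 over Csf3r was larger by 1.38 with PLX3397+Anakinra (exact p = 0.00794). The pairs share members and reuse the values of the single-gene comparisons in the same mice. Their counts are therefore no separate evidence, and the share among pairs of other genes was not computed.

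With Anakinra no member passed the test against vehicle. Csf3r measured 18.6, 15.5, 18.4, 16.1 and 17.6 TPM, and Ccr2 2.00, 1.60, 2.28, 2.64 and 2.29 TPM, both within or near the vehicle range. The log2 difference was -0.17 for Csf3r (95% interval -0.41 to 0.08) and -0.02 for Ccr2 (-0.30 to 0.27). S100a8 measured 8.64, 11.5, 25.2, 13.7 and 8.15 TPM, S100a9 1.49, 5.58, 18.3, 5.35 and 3.05 TPM, and Ly6c2 1.53, 1.31, 8.02, 1.83 and 2.24 TPM. Mouse J14 was the highest of its group for all 3. Chil3 measured 2.54, 0.950, 2.84, 2.06 and 3.59 TPM. The call count was 0 of 6 by limma, 0 at an unadjusted p below 0.05 and 0 by the exact test, where 0.116% of all genes tested differed in either direction (12 higher and 8 lower, or 5 and 6 after median-ratio scaling).

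With PLX3397+Anakinra, Csf3r measured 7.93, 6.69, 6.93, 7.09 and 7.05 TPM and fell to 36.5% of vehicle, by 1.33 ± 0.12 (SE) on the log2 scale (limma, adjusted p = 6.29e-09). Ccr2 measured 0.685, 0.678, 0.242, 0.690 and 0.686 TPM, 26.8% of vehicle, with a log2 difference of -1.005 ± 0.14 (SE; limma, adjusted p = 6.67e-06). Chil3 measured 0.642, 0.916, 0.714, 1.19 and 1.40 TPM, 34.6% of vehicle, with a log2 difference of -0.94 ± 0.18 (SE; limma, adjusted p = 0.000420). All 3 groups of values lay below every vehicle mouse. S100a8 measured 13.6, 6.54, 16.8, 7.99 and 8.78 TPM and S100a9 5.19, 3.18, 7.34, 6.22 and 7.11 TPM, with intervals of -0.77 to 0.86 and -0.71 to 1.17 on the log2 scale (limma, adjusted p = 0.960 and 0.789). Ly6c2 measured 2.12, 0.549, 0.589, 1.26 and 0.307 TPM, with an interval of -0.99 to 0.38 (limma, adjusted p = 0.594). Thus 3 of 6 members were lower than with vehicle (9.6% of genes tested), and 4 of 9 genes, these 3 and the barely detected Fpr2, did not overlap with vehicle (10.7% of genes tested).

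Chil3 was the member in which the PLX3397+Anakinra mice stood apart from the PLX3397 mice, with every value below the lowest of 1.64 TPM under PLX3397. The log2 difference was -0.66 ± 0.18 (SE), with an unadjusted p of 0.00108 and an adjusted p of 0.169 in limma, and an exact p of 0.00794. No member passed the adjusted test in this comparison, 1 had an unadjusted p below 0.05, and 0.151% of all genes tested were called in either direction. 1 of 9 genes did not overlap, against 1.13% of genes tested. Against Anakinra alone, Ccr2 (log2 difference -0.99), Chil3 (-0.74) and Csf3r (-1.16) were lower with PLX3397+Anakinra, 3 of 6 members beside 8.1% of genes tested (807 higher and 1399 lower, or 458 and 1529 after median-ratio scaling). The comparisons of the drugs with vehicle share the 5 vehicle mice, and these values are given side by side only.

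The interaction, which asks whether the effect of Anakinra differed with and without PLX3397, was called for 0 of 6 members in limma, as for 0% of all genes tested, and 1 member, Ly6c2, had an unadjusted p below 0.05 (0.0226). It was -1.15 for Ly6c2 with an interval of -2.12 to -0.18, -0.99 for S100a8 (-2.15 to 0.17) and -0.46 for Chil3 (-0.97 to 0.06) on the log2 scale. In limma's F-test over the 5 groups, 6 of 6 members had an adjusted p below 0.05, beside 51.9% of all genes tested.

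In order of mean level, Csf3r ran from vehicle (19.6 TPM) and Anakinra (17.2 TPM) to PLX3397 (8.78 TPM), PLX3397+Anakinra (7.14 TPM) and sham (3.30 TPM). Vehicle did not differ from Anakinra, nor PLX3397 from PLX3397+Anakinra, beyond the spread between mice. Ccr2 had the same order, with 2.23, 2.16, 0.800, 0.596 and 0.115 TPM and the same undivided neighbours. Chil3 ran from vehicle (2.81 TPM) over Anakinra (2.40 TPM) and PLX3397 (2.11 TPM), which were not called against vehicle, to PLX3397+Anakinra (0.971 TPM) and sham (0.0407 TPM). S100a8 was highest with PLX3397 (18.9 TPM), followed by Anakinra (13.4 TPM), vehicle (11.5 TPM), PLX3397+Anakinra (10.7 TPM) and sham (0.970 TPM), and none of the 5 comparisons made among TBI groups passed the test. S100a9 ran from PLX3397 (8.12 TPM) over Anakinra (6.75 TPM), PLX3397+Anakinra (5.81 TPM) and vehicle (5.69 TPM) to sham (0.930 TPM), again with no comparison among TBI groups past the test. Without mouse J14 the Anakinra mean of S100a9 was 3.87 TPM, the lowest of the TBI groups. The order of the TBI groups for S100a8 turned as well when mouse J14, J17B, J18B or J04 was left out. Close neighbours also changed places for S100a9 without mouse J17B, J20B, J20, J09 or J17, for Ccr2 without J01B or J06 and for Chil3 without J22. Ly6c2 was highest with Anakinra (2.98 TPM), then PLX3397 (2.00 TPM), vehicle (1.42 TPM), PLX3397+Anakinra (0.964 TPM) and sham (0.137 TPM). Without mouse J14 its Anakinra mean was 1.73 TPM, which lies below PLX3397. Its TBI groups did not pass the test against each other either, apart from PLX3397+Anakinra minus Anakinra without mouse J03 of the former (adjusted p = 0.0396).

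The 3 barely detected genes were near the lower end of the table. Plac8 measured 0.0655 to 0.106 TPM in sham, 0.283 to 0.663 with vehicle, 0.139 to 1.11 with PLX3397, 0.351 to 1.496 with Anakinra and 0.101 to 0.300 TPM with PLX3397+Anakinra. Its PLX3397+Anakinra mice lay below all Anakinra mice (exact p = 0.00794). Cxcr2 was listed at 0 in 3 sham mice and at 0.0352 TPM in the other, and measured 0.0866 to 0.695 with vehicle, 0.467 to 0.751 with PLX3397, 0.167 to 0.433 with Anakinra and 0.0459 to 0.633 TPM with PLX3397+Anakinra. Every TBI mouse was above every sham mouse for Cxcr2. Fpr2 measured 0.105 to 0.676 TPM in sham and 0.389 to 0.731 TPM with vehicle, without a difference (exact p = 0.429). With PLX3397+Anakinra it was listed at 0 in 2 mice and reached 0.302 TPM, below all vehicle mice (exact p = 0.00794). With depth unknown, no more can be said of these 3 levels.

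From mouse to mouse within the TBI groups, S100a8 and S100a9 moved together. Over the 20 TBI libraries, with group means removed, Pearson's r of log2(TPM + 1) was 0.85 and Spearman's rho 0.79 (permutation within groups, 100000 draws, p = 6e-05 and 0.00034, adjusted over 6 pairs 0.00036 and 0.00204). Without the 2 libraries farthest from the median of S100a8, r was 0.77. Of the other pairs tested, Ccr2 and Ly6c2 had r = 0.33 and rho = 0.22 (permutation, adjusted p = 0.225 and 0.448), Csf3r and Cxcr2 r = 0.36 and rho = 0.39 (permutation, adjusted p = 0.131 and 0.243), and Ccr2 and S100a8 r = 0.44 and rho = 0.23 (permutation, adjusted p = 0.148 and 0.448). The haemoglobin gene Hbb-bs, a red blood cell gene, had r = 0.56 and rho = 0.37 with S100a8 (permutation, adjusted p = 0.131 and 0.299). Without the 2 libraries farthest from the median of S100a8 this r was 0.06, so that it rested on those libraries. With Ly6c2, Hbb-bs had r = 0.03 and rho = -0.20 (permutation, adjusted p = 0.884 and 0.448).

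**Figure D3:**
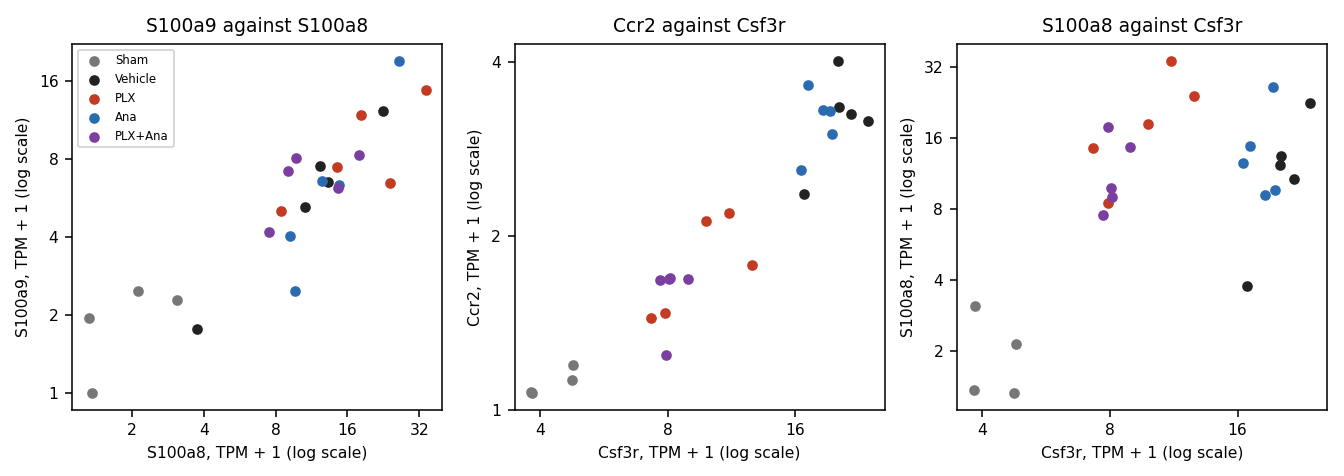
TPM + 1 of S100a9 against S100a8, Ccr2 against Csf3r and S100a8 against Csf3r in each mouse (points, coloured by group), with both axes on a log scale. S100a8 and S100a9 line up across groups. In the third panel the PLX3397 and PLX3397+Anakinra mice stand left of the vehicle and Anakinra mice at like heights.

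The genes with the pattern most like each member were ranked by Pearson's r of log2(TPM + 1) over the 20 TBI libraries, as a description that includes the group differences. For Csf3r they were Ncf1 (0.99), Fcrls (0.98) and Vsir (0.98), and for Ccr2 Lpxn (0.96), Ccr1 (0.96) and Lat2 (0.95). For Chil3 they were Fam46a (0.84), Arg1 (0.84) and Gm1966 (0.83), and for Ly6c2 Gm39474, Oasl1 and Gbp4 (0.71, 0.71 and 0.70). S100a8 and S100a9 were each other's nearest gene (0.85), followed by Cp (0.77) and Ifitm1 (0.73) for S100a8 and by Mamstr and Rad1 (0.65 each) for S100a9. Against Cx3cr1, the fractalkine receptor gene of microglia, r was 0.97 for Csf3r, 0.92 for Ccr2, 0.58 for Chil3, 0.23 for Ly6c2, -0.10 for S100a8 and -0.20 for S100a9.

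Marker levels of some other cell types also differed between vehicle and the groups given PLX3397. With PLX3397 alone, 0 of 4 endothelial, 0 of 4 neuronal and 0 of 3 astrocyte markers were called against vehicle. Of 3 oligodendrocyte markers 1 was higher, as were 557 of 17267 genes tested. With PLX3397+Anakinra 3 of 4 neuronal markers were higher than with vehicle, as were 1360 of 17267 genes tested. The summed level of 6 microglial markers was 948 to 1206 TPM with vehicle, 413 to 623 with PLX3397, 1019 to 1165 with Anakinra, 377 to 516 with PLX3397+Anakinra and 252 to 270 TPM in sham, and 6 of 6 were lower with PLX3397 and with PLX3397+Anakinra than with vehicle. That of 6 border macrophage markers was 64.0 to 138 TPM with vehicle, 30.9 to 60.5 with PLX3397 and 10.4 to 18.7 with PLX3397+Anakinra, with 5 of 6 lower in both comparisons. Of all genes tested, 6.66% were lower than vehicle with PLX3397 and 9.6% with PLX3397+Anakinra. The part of these cells in the fall of Csf3r, Ccr2 and Chil3 was not tested. The 5 red blood cell genes summed to 1507 to 4406 TPM with vehicle and 2142 to 3195 TPM in sham, and to 606 to 1072 TPM with PLX3397 and 725 to 951 TPM with PLX3397+Anakinra, with 5 of 5 lower than vehicle in both and 0 of 5 called between vehicle and sham. These 5 genes were also lower than sham with PLX3397 and with PLX3397+Anakinra. Whether their sum follows the amount of blood was not tested. S100a8 and S100a9 had higher means with PLX3397 than with vehicle, neither called, and were higher with vehicle than in sham. The part of blood in these levels was not tested.

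Of the 20 neutrophil granule and surface genes, 15 had means below 0.5 TPM in sham and 13 with vehicle, and 7 reached the mean for testing. Ly6g had group means of 0 to 0.0379 TPM, Mpo of 0.0123 to 0.0695 and Elane of 0 to 0.0509 TPM. Camp, also too low for the test, had a mean of 0.113 TPM in sham and 0 with vehicle. Ly6g likewise had a lower mean with vehicle (0.0289 TPM) than in sham (0.0379 TPM). Some other genes too low for the test had higher means with vehicle than in sham. Trem1 was at 0 in sham and 0.481 TPM with vehicle. Retnlg was at 0.0453 TPM in sham, 0.124 with vehicle and 0.619 with PLX3397+Anakinra, with 0 in some mice of each group. The number of neutrophils was not tested. The granule protease gene Prtn3 stood apart from Mpo and Elane, with 3.13 TPM in sham and group means of 1.63 to 2.27 TPM after TBI, and was not called between vehicle and sham (limma, adjusted p = 0.0709). Of the 7, 4 were higher with vehicle than in sham, where 26.6% of all genes tested were. The median log2 difference of the 7 was 0.36, beside -0.01 over all genes tested. Of these 7, 2 had sham means below 0.5 TPM and entered the test through the TBI groups. With PLX3397, 1 of the 7 was lower than with vehicle (median -0.08), beside 6.66% of all genes tested. With PLX3397+Anakinra 2 of the 7 were lower (median -0.29), beside 9.6%. The collagenase gene Mmp8, stored in neutrophil granules, was listed at 0 in all sham mice and measured 3.82 ± 0.437 TPM with vehicle, 2.37 ± 0.515 with PLX3397, 2.06 ± 0.284 with Anakinra and 0.663 ± 0.228 TPM with PLX3397+Anakinra (SD, n = 5 each). It was lower than vehicle in all 3 drug groups, by 0.52, 0.65 and 1.54 on the log2 scale in that order (limma, adjusted p = 0.00209, 0.0200 and 2.43e-10). Lcn2, which encodes the iron-binding granule protein lipocalin 2 and is made by reactive astrocytes as well, was 1.31 TPM in sham, 62.6 with vehicle, 54.9 with PLX3397, 25.3 with Anakinra and 23.4 TPM with PLX3397+Anakinra, and was lower than vehicle in the last (log2 difference -1.52, limma, adjusted p = 0.0105). Mmp9, the gelatinase gene, measured 1.96 ± 1.02 TPM with vehicle and 4.58 ± 2.17 TPM with Anakinra (SD, n = 5 each), a log2 difference of 0.90 that was not called (limma, adjusted p = 0.0587).

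Among 14 other monocyte genes, 8 were tested, of which 6 were higher and 1 lower with vehicle than in sham (median log2 difference 0.85). Of all genes tested, 26.6% were higher in this comparison. Of the 8, 3 had entered the test through the TBI groups with sham means below 0.5 TPM. Pglyrp1, a peptidoglycan recognition protein gene also known from neutrophil granules, had group means of 19.7 to 27.6 TPM, and was higher with vehicle than in sham by 0.34 on the log2 scale (limma, adjusted p = 0.00899). With PLX3397, 2 of the 8 were lower than with vehicle (median -0.19), beside 6.66% of all genes tested. With PLX3397+Anakinra 3 of the 8 were lower (median -0.25), beside 9.6%. Ms4a6c, a membrane protein gene of monocytes and macrophages, measured 9.58 TPM with vehicle, 3.70 with PLX3397, 7.43 with Anakinra and 1.67 TPM with PLX3397+Anakinra, and it was lower in the last than with PLX3397 alone (log2 difference -0.79, limma, adjusted p = 0.00599). Itgal, the integrin chain of LFA-1, fell with PLX3397 by 0.42 and with PLX3397+Anakinra by 0.66 on the log2 scale. Vcan, a proteoglycan gene of classical monocytes that brain cells express too, differed by 0.03 with PLX3397 and -0.08 with PLX3397+Anakinra. No gene of this list was called with Anakinra alone.

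Of 16 genes for ligands and other receptors tied to the members, 11 were tested, and 11 of 11 were higher with vehicle than in sham (median log2 difference 2.56), where 26.6% of all genes tested were. In sham, 6 of the 11 had means below 0.5 TPM and entered the test through the TBI groups, so that their rise was partly fixed by the filter. The CCR2 ligand Ccl2 measured 0.340 ± 0.249 TPM in sham (SD, n = 4), 14.4 ± 2.66 with vehicle, 10.1 ± 2.23 with PLX3397, 17.1 ± 3.86 with Anakinra and 7.80 ± 2.15 TPM with PLX3397+Anakinra (SD, n = 5 each). Against vehicle its log2 difference was -0.48 with PLX3397 (limma, adjusted p = 0.0857) and -0.83 with PLX3397+Anakinra (adjusted p = 0.00136). The CCR2 ligands Ccl7 (log2 difference -1.27) and Ccl12 (-1.06) were lower with PLX3397+Anakinra as well, as was the chemokine gene Ccl8 (-1.97). Of these, Ccl8 and Ccl12 passed with PLX3397 alone (-1.22 and -0.59, limma, adjusted p = 0.000769 and 0.0498). None of the 3 CXCR2 ligands tested, Cxcl1, Cxcl5 and Ppbp, was called between a drug group and vehicle. Cxcl5 rose from 1.01 TPM in sham to 18.2 TPM with vehicle, and its log2 difference from vehicle was 0.08 with PLX3397 and -0.29 with PLX3397+Anakinra, neither called. Cxcl1 stood at 1.32 TPM with vehicle and 1.51 TPM with PLX3397+Anakinra, and Ppbp at 0.966 TPM with vehicle and 0.498 TPM with PLX3397+Anakinra (log2 difference -0.36, limma, adjusted p = 0.243). Cxcl3, whose mean was too low for the test, had means of 0.510 TPM with vehicle, 0.0964 with PLX3397, 0.788 with Anakinra and 0.0513 TPM with PLX3397+Anakinra. The FPR2 ligands Anxa1 (3.02 TPM in sham, 25.4 with vehicle) and Saa3 (0.131 and 11.3 TPM) rose after injury and were not called between drugs and vehicle. Tlr4, a receptor for calprotectin, fell with PLX3397 by 0.56 and with PLX3397+Anakinra by 0.73 on the log2 scale. Csf3, the ligand of CSF3R, had group means of 0.0633 to 0.133 TPM. In all, 3 of 11 were lower than vehicle with PLX3397 (median -0.23), 5 with PLX3397+Anakinra (median -0.68) and 0 with Anakinra (median 0.17). Of all genes tested, 6.66% were lower with PLX3397 and 9.6% with PLX3397+Anakinra, and 0.116% differed either way with Anakinra.

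**Figure D4:**
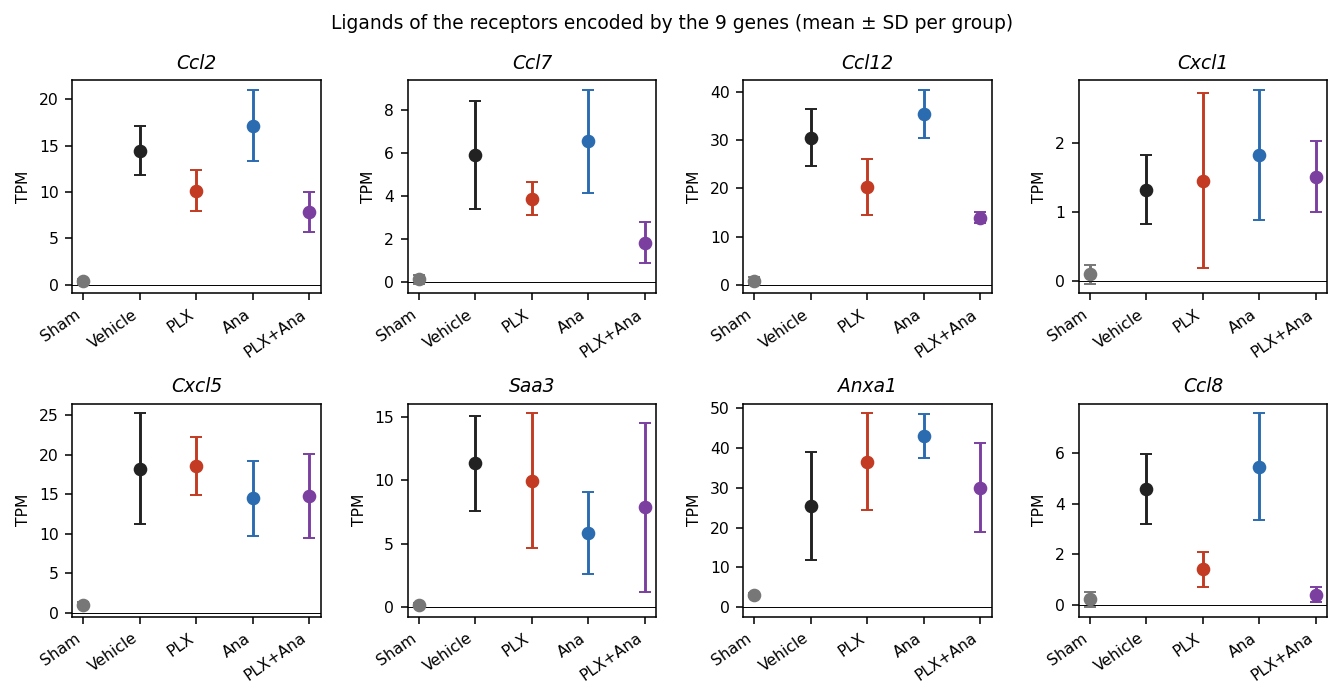
Mean ± SD in TPM (vertical axes, linear) of 8 genes in each group, with n = 4 in sham and n = 5 in the others. Ccl8 is shown beside genes for ligands of CCR2, CXCR2 and FPR2. All 8 are near the bottom in sham. Ccl2, Ccl7, Ccl8 and Ccl12 are lower with PLX3397+Anakinra than with vehicle, and Cxcl5 is at 18.2 TPM with vehicle and 14.8 TPM with PLX3397+Anakinra.

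Of 10 paralogues of the members, 6 were tested, 1 of them with a sham mean below 0.5 TPM. With vehicle, 5 of the 6 were higher than in sham (median log2 difference 1.15), beside 26.6% of all genes tested. Ccr1, a chemokine receptor gene of the same family as Ccr2, fell with PLX3397 by 1.04 on the log2 scale and with PLX3397+Anakinra by 1.53. In all, 2 of 6 paralogues were lower than vehicle with PLX3397 (median -0.14), beside 6.66% of all genes tested. With PLX3397+Anakinra 4 of 6 were lower (median -0.50), beside 9.6%. Ly6c1, the paralogue of Ly6c2 known from brain endothelium, was far more abundant, with group means of 70.5 TPM in sham and 86.5 to 92.4 TPM in the TBI groups. Stretches of 150 bases, the read length, were compared between annotated transcripts, and 1.43% of those of Ly6c2 occurred unchanged in Ly6c1. That share counts exact matches only and does not bound the error in the levels of Ly6c2, because Ly6c1 was far more abundant. How many reads of Ly6c1 were counted for Ly6c2 was not tested. Ly6c2 was at 0 to 0.402 TPM in sham mice, in which Ly6c1 was abundant. Fpr2 shared 1.27% of its stretches with Gm5966, and Plac8, Chil3, S100a8, S100a9, Csf3r and Cxcr2 shared none with another gene. Chil4, the paralogue of Chil3, and Fpr3, Fpr-rs3 and Fpr-rs4 were listed at 0 in all 24 libraries.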

How the data were processed

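RNA of 24 mice was extracted from brain cryosections and sequenced as poly(A) mRNA in paired-end mode. The authors trimmed and mapped the reads in CLC Genomics Workbench to mm10 (GRCm38 per the labels) and deposited expression as TPM in 3 tables. The full table was used, and its rounded copy served as an alternative. The third table holds a subset of genes with p-values and F values of the authors, which were not used. The tables give no read counts, so that depth is unknown and precision rests on the spread between mice. The p-values for group differences set each difference against that spread, which limma pools over the groups and moderates with a trend over all genes tested.

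Groups follow the treatment each label names, and no mouse was left out. The 17267 of 36333 genes whose mean reached 0.5 TPM were fitted as log2(TPM + 1) in limma 3.58.1 (R 4.3.3), with 1 mean per group, a variance trend and Benjamini-Hochberg adjustment, and tested on simulated data. A log2 difference on this scale understates changes of low genes. The study's own criteria (p below 0.05, ratio above 2, difference above 4 TPM) were an alternative. Mean TPM was compared by exact two-sided permutation (scipy 1.17.1). Genes named are the members, the genes of the lists and, for each tested member, the 3 genes with the most similar pattern. The members, lists and tests were chosen with earlier results of these data known. The animal IDs do not pair mice between groups. Promoters came from RefSeq (GRCm38.p6), gene positions and transcripts from GENCODE. Some results on single genes of the lists are not reported here.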

Additional observations from a re-analysis of the deposited data

Results flagged for a closer look

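For each of the 9 genes in each of the 5 groups, 45 sets in all, the highest or lowest mouse was compared with the others by Dixon's criterion, which flags about 1 in 20 sets by chance. It flagged 8. In the Anakinra group, mouse J14 was far above the others for Ly6c2 (8.02 TPM, next 2.24), S100a9 (18.3 TPM, next 5.58) and Cxcr2 (0.433 TPM, next 0.236). Without this mouse no call of a member in a comparison with the Anakinra group changed. With PLX3397+Anakinra, mouse J09 was below the others for Ccr2 (0.242 TPM, next 0.678). Mouse J17B of the vehicle group was above the others for Fpr2 (0.731 TPM, next 0.466), and mouse J05 of the Anakinra group below them (0.201 TPM, next 0.470). In sham mice Chil3 (0.163 TPM in J15) and Cxcr2 (0.0352 TPM in J16) were above 0 in 1 mouse only.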

How the results depend on the processing

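The counts of members called were compared under 7 other settings and with each mouse left out in turn. With the criteria of the study, which ask for a difference above 4 TPM, the number called against sham was 3 for vehicle, 3 for PLX3397, 3 for Anakinra (Csf3r, S100a8 and S100a9 each time) and 2 for PLX3397+Anakinra (S100a8 and S100a9). Against vehicle it was 1 for PLX3397 and 1 for PLX3397+Anakinra, and PLX3397+Anakinra against Anakinra gave 1, Csf3r in each. Members at a few TPM, such as Ccr2 and Chil3, cannot differ by that much. No other setting moved a count by over 1.5 times, and no log2 difference that passed the test changed its sign. Leaving out a mouse changed the sign of 14 of 636 log2 differences, none of them called, for S100a8, S100a9 and Ccr2 in Anakinra minus Vehicle, S100a8 and S100a9 in PLX3397+Anakinra minus Vehicle, S100a9 in PLX3397+Anakinra minus Anakinra and Csf3r in the interaction. The other settings changed the sign of 0 of 358. The correlation of Csf3r and Cxcr2 without the 2 libraries farthest from the median of Csf3r was 0.56 (permutation, adjusted p = 0.0447), and the cause was not tested. Of 994 log2 differences under alternatives, 3 changed their side of the threshold, all for Ly6c2, 2 times for PLX3397+Anakinra minus Sham (pseudocount of 0.1 and only the groups compared) and 1 time for PLX3397+Anakinra minus Anakinra (without PLX3397+Anakinra mouse J03). No paired analysis was possible because the animal IDs name different mice in each group. Without the filter on low values, 28322 genes were tested, and Plac8 and Cxcr2 were called higher with vehicle than in sham (limma, adjusted p = 0.0399 and 0.00678) and with PLX3397 (0.0483 and 0.000312). Plac8 was also higher with Anakinra than in sham (0.000762) and lower with PLX3397+Anakinra than with Anakinra (log2 difference -0.60, adjusted p = 0.0133). The order of group means without each mouse was added after the data were seen. Levels below 0.5 TPM are limited by a depth that is unknown.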
